A study of Homo sapiens with 6 samples.

Results

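Epithelial to mesenchymal transition (EMT) genes were examined in the transcriptome of wild strain TPC-1 cells and of *RRM2*-OE-TPC-1 cells. The set held 10 genes, taken as the rows of the deposited FPKM table that carry their names: the transcription factors *SNAI1*, *SNAI2*, *TWIST1*, *ZEB1* and *ZEB2*, the mesenchymal genes *CDH2*, *VIM* and *FN1*, and the epithelial genes *CDH1* and *EPCAM*. All 10 were found among 58735 genes. FPKM is the number of fragments per kilobase of gene model, scaled to the depth of the library. It adjusts for gene length and depth only.

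TPC-1 is an established human papillary thyroid carcinoma cell line. The control group was 3 libraries of the untransduced wild strain, and the overexpression group was 3 libraries of TPC-1 cells carrying an LV18 lentivirus with *RRM2*, the small subunit of ribonucleotide reductase, behind a CMV promoter and with a puromycin resistance gene. No empty-vector line was among the samples, so transduction and puromycin selection cannot be told apart from *RRM2* itself, and the overexpression libraries come from a single transduced line. The titles of all 3 overexpression libraries name *RRM2*, while the genotype entries of replicates 2 and 3 read RRM3 and RRM4.

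The libraries held between 14317091 and 17084067 reads on genes, of which 4.29 to 5.89% were mitochondrial. *RRM2* stood at 9.17, 9.05 and 8.52 FPKM in the wild strain replicates 1 to 3 and at 50.4, 47.5 and 47.2 FPKM in the overexpression replicates, a log2 fold change of 2.43 (SE 0.0442, limma, adjusted p = 1.11e-08). All 3 overexpression libraries therefore carried the raised transcript, whatever their genotype entry read. Throughout, a log2 fold change is the overexpression group minus the wild strain on the scale log2(FPKM + 0.1), with 3 libraries in each group. A gene passed the test when its adjusted p did not exceed 0.05. It was called when, in addition, its log2 fold change was 1 or more in either direction.

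The labelled cell type was checked against lineage markers. Of 8 thyroid markers, 3 reached 1 FPKM in a library. These were *PAX8*, *FOXE1* and *HHEX*, thyroid transcription factors, and the summed level of the list was 73.9 to 77.8 FPKM in the wild strain and 64.3 to 67.6 FPKM after overexpression. *NKX2-1*, another thyroid transcription factor, was at 0 in all 6 libraries, and *TG*, *TSHR* and *SLC5A5*, genes of hormone production, stayed at or below 0.113 FPKM. The fibroblast list summed to 2.80 to 3.20 FPKM in the wild strain and 2.79 to 2.96 FPKM after overexpression, with 1 of 8 genes at 1 FPKM (*PDGFRB*) and *DCN*, *COL1A2* and *COL3A1* at 0. The leukocyte list summed to at most 0.410 FPKM, with none of 5 genes at 1 FPKM and *CD3E* and *MS4A1* at 0.

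EMT is the programme by which epithelial cells give up their cell-to-cell junctions and take on the shape and motility of mesenchymal cells. Factors of the Snail, Twist and ZEB families drive it by repressing epithelial genes, above all *CDH1*, which encodes E-cadherin, and cells exchange E-cadherin for N-cadherin and gain vimentin and fibronectin. In carcinoma the programme is often partial, with epithelial and mesenchymal features in the same cell, and in the thyroid it has been studied mainly at the invasive edge and in dedifferentiated tumours.

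Promoter stretches are shown for *ZEB1*, *VIM* and *FN1*, a regulator that is itself one of the E-box binding factors and the most abundant pair of mesenchymal transcripts of the set. The letters are the RefSeq sequence of build GRCh38.p14 upstream of an annotated start and outside protein-coding exons, written 5′ to 3′ along the gene's strand, and the capitals mark motif matches.
*ZEB1* promoter, chr10:31318167-31318416, plus strand: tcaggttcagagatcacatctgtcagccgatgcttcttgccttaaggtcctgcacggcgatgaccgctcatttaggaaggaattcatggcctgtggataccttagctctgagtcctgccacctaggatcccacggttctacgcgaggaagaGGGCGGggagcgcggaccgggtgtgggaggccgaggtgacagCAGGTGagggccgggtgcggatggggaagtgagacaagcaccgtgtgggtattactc
*VIM* promoter, chr10:17227991-17228240, plus strand: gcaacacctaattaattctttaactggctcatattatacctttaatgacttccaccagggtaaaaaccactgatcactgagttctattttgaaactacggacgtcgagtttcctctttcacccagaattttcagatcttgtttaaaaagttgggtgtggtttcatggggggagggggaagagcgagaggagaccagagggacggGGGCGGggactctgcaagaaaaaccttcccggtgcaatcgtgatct
*FN1* promoter, chr2:215436173-215436318, minus strand: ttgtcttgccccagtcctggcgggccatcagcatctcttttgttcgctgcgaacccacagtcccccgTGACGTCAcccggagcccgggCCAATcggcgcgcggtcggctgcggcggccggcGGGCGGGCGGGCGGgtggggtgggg

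The motifs searched on both strands were CAGGTG (reverse CACCTG), the E-box form bound by Snail and ZEB proteins, TGACGTCA, the cAMP response element, GGGCGG (reverse CCGCCC), the GC box, and CCAAT (reverse ATTGG), the CCAAT box. Overlapping matches were counted separately. Among 35116 RefSeq promoter windows, 20.59% held the E-box, 1.848% the cAMP response element, 44.95% the GC box and 34.61% the CCAAT box. The *ZEB1* stretch held 1 E-box and 1 GC box. The *VIM* stretch held 1 GC box and no other motif of the search. The *FN1* stretch held 1 cAMP response element, 1 CCAAT box and 3 overlapping GC boxes. Over the whole windows, the E-box letters occurred at 2 of the 7 *ZEB1* starts and at none of the starts of *ZEB2*, *CDH2*, *VIM* and *FN1*. The *ZEB1* stretch shown comes from 1 of these 2 starts. No window was at hand for *SNAI1*, *SNAI2*, *TWIST1*, *CDH1* and *EPCAM*, so their promoters were not searched. These matches describe the letters only, and binding was not measured.

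The EMT genes moved in mixed directions. *CDH2*, *VIM* and *SNAI2* rose, while *SNAI1*, *TWIST1*, *ZEB1* and *ZEB2* fell, and *FN1*, the most abundant transcript of the set, did not pass the test. *CDH1* and *EPCAM* were close to the limit of detection in both groups. In bulk RNA, fewer cells with a transcript and less of it per cell cannot be told apart.

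Of the 10 genes, 8 passed the filter on low values. Of these 8, 7 passed the test, 3 higher and 4 lower, where 67.6% of the 13621 genes tested passed it (34.9% higher and 32.7% lower). Only *CDH2* of the 8 was also called, where 11.5% of all genes tested were (4.48% higher and 6.97% lower). In all 8 the groups did not overlap, as for 72.2% of the genes tested. The shares are therefore read against a comparison in which most genes passed. The median log2 fold change of the 8 was -0.10, beside 0.01 over all genes tested, and the median size of the change over all genes was 0.37.

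**Figure D1:**
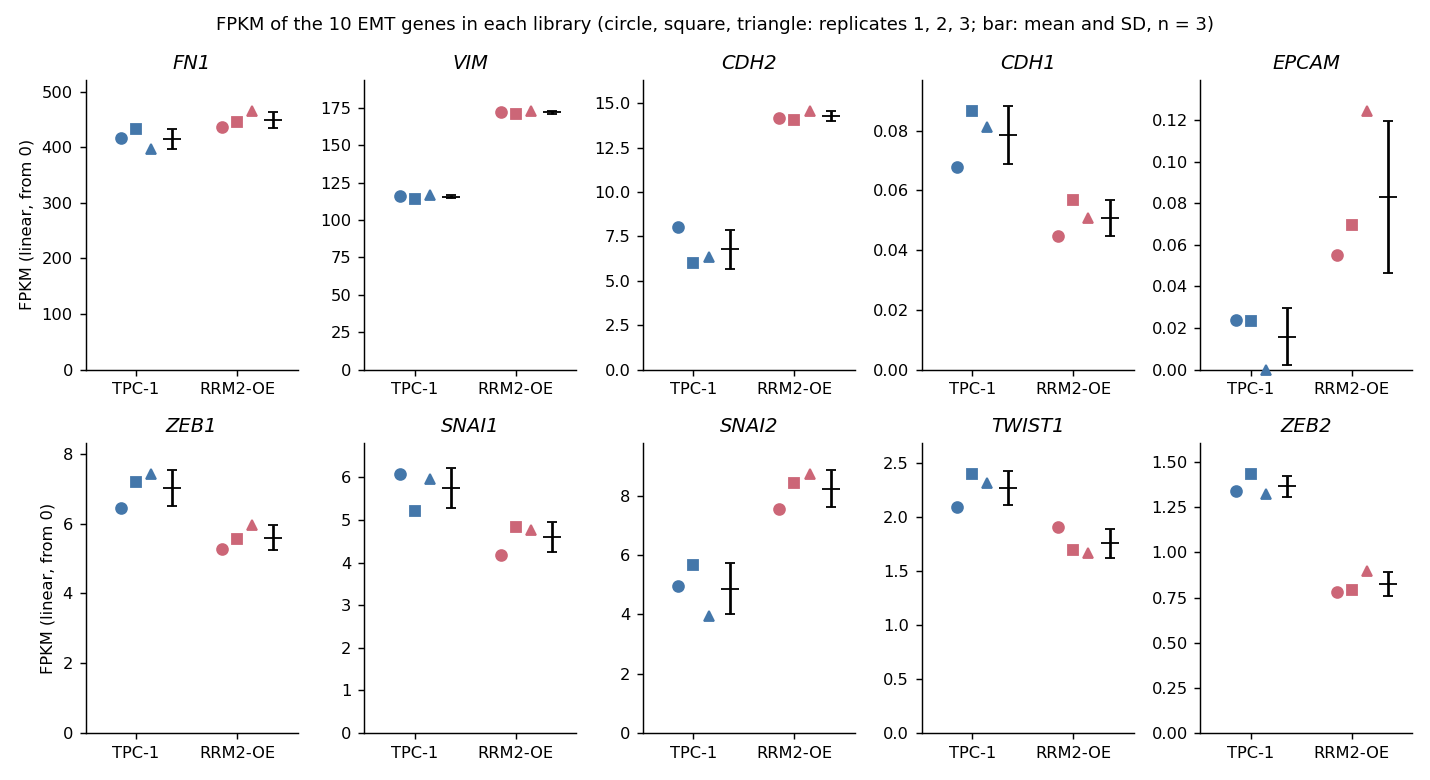
FPKM of each EMT gene (linear axes from 0, each with its own scale) in the 3 wild strain TPC-1 libraries (blue) and the 3 *RRM2*-OE-TPC-1 libraries (red), with the mean and SD of each group as a bar. *CDH2*, *VIM* and *SNAI2* sit higher and the other 4 transcription factors lower after overexpression, and the axes of *CDH1* and *EPCAM* end below 0.15 FPKM.

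Gene positions below are those of the deposited annotation on GRCh38. Among the mesenchymal genes, *CDH2* (chr18:27950966-28177446, minus strand) encodes N-cadherin, the adhesion molecule that takes the place of E-cadherin in motile cells. It stood at 8.04, 5.99 and 6.31 FPKM in the wild strain replicates 1 to 3 and at 14.16, 14.03 and 14.57 FPKM in the overexpression replicates. The overexpression libraries lay close together and well above the wild strain, whose replicate 1 was the highest of its group. *CDH2* rose 2.10-fold, a log2 fold change of 1.07 (SE 0.0999, 95% interval 0.84 to 1.30, limma, adjusted p = 3.14e-05). The interval reaches below the threshold of 1 for a call. Without the wild strain replicate 2 the log2 fold change was 0.99, and the call was lost while the test was still passed (limma, adjusted p = 1.18e-04). By the size of its change *CDH2* was number 1361 of the 13621 genes tested.

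*VIM* (chr10:17228259-17237593, plus strand) encodes vimentin, the intermediate filament protein of mesenchymal cells. Its level was 116, 114 and 117 FPKM in the wild strain and 172, 171 and 173 FPKM after overexpression. The replicates of each group were almost equal, with a coefficient of variation of 1.09% in the wild strain and 0.589% after overexpression, and the groups were far apart. *VIM* rose 1.49-fold (log2 fold change 0.57, SE 0.0293, limma, adjusted p = 1.30e-06). It was number 181 by mean FPKM among the genes tested, and the smallest number of reads behind a value was 9592. An antisense transcript, *VIM-AS1*, shares 641 exonic bases with *VIM* on the opposite strand, but it held only 11 to 25 reads in a library.

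*FN1* (chr2:215360440-215436172, minus strand) encodes fibronectin, an extracellular matrix glycoprotein that binds integrins. Its level was 416, 432 and 396 FPKM in the wild strain and 437, 446 and 465 FPKM after overexpression, and it alone took 0.722 to 0.804% of all reads on genes. The lowest overexpression library lay just above the highest wild strain library. The difference did not pass the test (log2 fold change 0.12, SE 0.0466, 95% interval 0.01 to 0.22, limma, adjusted p = 0.0558). Counting error was at most 0.302% at this depth, so the spread between replicates, 4.33% in the wild strain and 3.25% after overexpression, set the precision. Whether *FN1* passed depended on the setting. The adjusted p was 2.68e-04 by limma voom on the recovered reads, 0.0395 by limma over protein-coding genes only, 0.0332 without the wild strain replicate 2 and 0.0414 without the overexpression replicate 1. It was 0.153 with no filter on low values, 0.110 with a replicate block and 0.263 when reads were scaled to library totals, where the log2 fold change was 0.06.

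The epithelial genes were barely transcribed. *CDH1* (chr16:68737225-68835548, plus strand), the E-cadherin gene, had 7, 9 and 8 reads in the wild strain libraries and 4, 6 and 5 reads after overexpression, which is 0.0679, 0.0866 and 0.0813 FPKM against 0.0448, 0.0567 and 0.0508 FPKM. The groups did not overlap, but the counts were small. Pooled over libraries and scaled by depth, the overexpression level was 0.650 times that of the wild strain (24 against 15 reads, exact 95% interval 0.317 to 1.29), so a difference was not detectable at this depth. *CDH1* was below the filter on low values and was not tested. The interval covers counting error only.

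*EPCAM* (chr2:47345158-47387601, plus strand), an epithelial cell adhesion molecule used to mark carcinoma cells, had 1, 1 and 0 reads in the wild strain and 2, 3 and 5 reads after overexpression. In FPKM this is 0.0238, 0.0236 and 0 against 0.0549, 0.0695 and 0.125. Each overexpression library was above each wild strain library, with 10 pooled reads against 2 and a depth-scaled ratio of 5.20 (exact 95% interval 1.11 to 48.8). The interval is wide because it rests on 2 wild strain reads, and the gene was below the filter in all 6 libraries. By comparison, *FN1* had at least 109334 reads in each library.

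The balance of the cadherins was computed in each library as the log2 ratio of *CDH2* to *CDH1* after adding 0.1 FPKM to both. It was 5.60, 5.03 and 5.14 in the wild strain and 6.62, 6.49 and 6.60 after overexpression. N-cadherin transcript thus exceeded E-cadherin transcript in every library of both groups, and by more after overexpression. The mean difference in this log2 ratio was 1.32 with a pseudocount of 0.1, 1.63 with one of 0.01 and 1.02 with one of 1, since the denominator rests on fewer than 10 reads in a library.

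Of the transcription factors, *SNAI2* encodes Slug, a zinc finger repressor of *CDH1*. Its level was 4.96, 5.68 and 3.96 FPKM in the wild strain and 7.55, 8.45 and 8.73 FPKM after overexpression. All overexpression libraries were above all wild strain libraries, and the wild strain was the more variable group (coefficient of variation 17.8% against 7.52%). *SNAI2* rose 1.69-fold (log2 fold change 0.76, SE 0.124, 95% interval 0.47 to 1.05, limma, adjusted p = 7.81e-04).

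*SNAI1* (chr20:49982999-49988886, plus strand) encodes Snail, the closest relative of Slug. It stood at 6.08, 5.22 and 5.95 FPKM in the wild strain and at 4.19, 4.85 and 4.77 FPKM after overexpression. The wild strain replicate 2 came nearest to the overexpression libraries, without overlap. *SNAI1* fell by 0.32 on the log2 scale (SE 0.0835, 95% interval -0.51 to -0.12, limma, adjusted p = 0.00997). It rested on 102 to 171 reads in a library, a counting error of up to 9.90%, which is as large as the spread of 8.07% and 7.84% between replicates.

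The paralogues therefore moved in opposite directions. The ratio of *SNAI2* to *SNAI1* in FPKM was 0.817, 1.09 and 0.665 in the wild strain libraries and 1.80, 1.74 and 1.83 in the overexpression libraries. Wild strain libraries lay on both sides of an even ratio, and every overexpression library had more *SNAI2*.

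*ZEB1* (chr10:31318495-31529814, plus strand), a zinc finger and homeodomain repressor of epithelial genes, stood at 6.46, 7.19 and 7.42 FPKM in the wild strain and at 5.26, 5.55 and 5.97 FPKM after overexpression. The groups were separate, with the wild strain replicate 1 nearest to the others. *ZEB1* fell by 0.32 on the log2 scale (SE 0.0727, limma, adjusted p = 0.00460). The antisense transcript *ZEB1-AS1* overlaps 366 of the 8650 exonic bases of *ZEB1* and had a mean of 0.918 FPKM, with 34 to 81 reads in a library against 658 to 1046 for *ZEB1*. Whether the counting used strand was not given in the sources used here, so reads in the shared bases cannot be assigned with certainty.

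*ZEB2* (chr2:144364364-144524583, minus strand), the paralogue of *ZEB1*, had the lowest FPKM of the factors. It stood at 1.34, 1.43 and 1.32 FPKM in the wild strain and 0.781, 0.790 and 0.899 FPKM after overexpression. Every overexpression library was below 0.9 FPKM and every wild strain library above 1.3 FPKM. *ZEB2* fell by 0.67 on the log2 scale (SE 0.118, limma, adjusted p = 0.00124). At this level the value depends on the pseudocount, with -0.38 when 1 FPKM was added. The FPKM divides by the 25058 bases of all annotated exons, so a cell that uses a shorter transcript has a lower value than its transcript number would give.

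*TWIST1* (chr7:19020991-19117672, minus strand), a basic helix-loop-helix factor, stood at 2.09, 2.40 and 2.31 FPKM in the wild strain and at 1.91, 1.69 and 1.67 FPKM after overexpression. The groups approached each other most closely in their replicates 1. *TWIST1* fell by 0.35 on the log2 scale (SE 0.0977, limma, adjusted p = 0.0124). It had the fewest reads of the factors, 54 to 82 in a library, and by limma voom on the recovered reads the adjusted p was 0.0605.

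**Figure D2:**
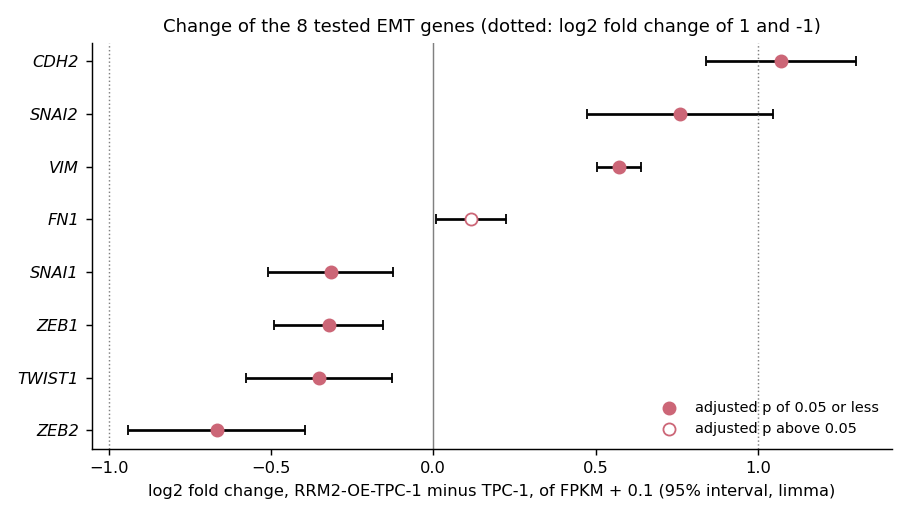
Log2 fold change (*RRM2*-OE-TPC-1 minus TPC-1, of FPKM + 0.1) of the 8 EMT genes that passed the filter, with 95% intervals from limma. Filled points have an adjusted p of 0.05 or less, and *FN1* alone is open, while *CDH2* alone lies beyond the dotted line at 1.

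Together the 5 factors summed to 20.9, 21.9 and 21.0 FPKM in the wild strain and to 19.7, 21.3 and 22.0 FPKM after overexpression. The sums of the groups overlapped. *SNAI2* made up 23.7, 25.9 and 18.9% of the sum in the wild strain and 38.3, 39.6 and 39.6% after overexpression. *ZEB1* was the most abundant factor in each wild strain library, with 30.8 to 35.4% of the sum, and *SNAI2* in each overexpression library. *SNAI1* and *SNAI2* changed places between wild strain libraries, with *SNAI2* ahead in replicate 2, so those levels do not differ beyond their spread in that group. By FPKM, *TWIST1* and then *ZEB2* came last in all 6 libraries. This order rests on the gene lengths that FPKM divides by, 25058 bases for *ZEB2* and 2033 for *TWIST1*. In reads, *ZEB2* had 283 to 604 in a library, *SNAI1* 102 to 171 and *TWIST1* 54 to 82.

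**Figure D3:**
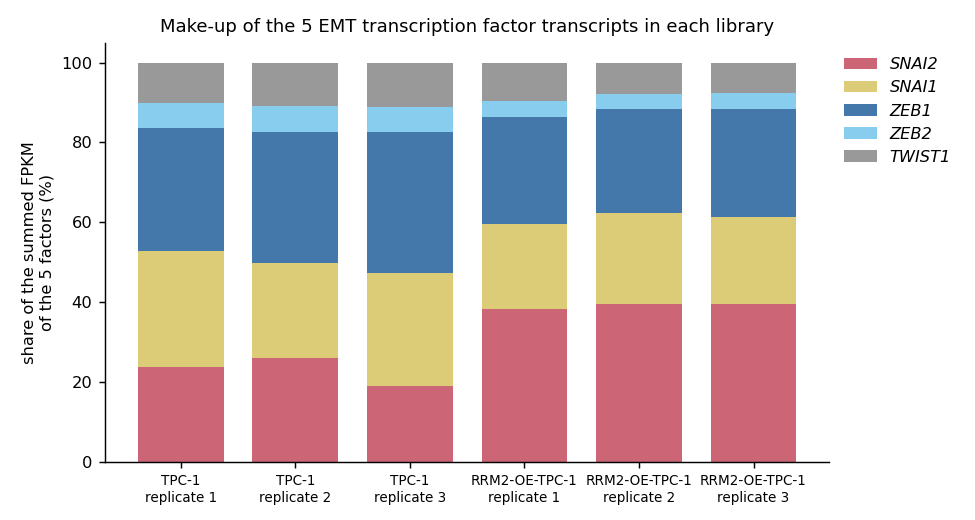
Share (%) of each EMT transcription factor in the summed FPKM of the 5 factors, in each of the 6 libraries as a stacked bar. *SNAI2* takes 18.9 to 25.9% of the wild strain bars and 38.3 to 39.6% of the overexpression bars, while the share of *ZEB1* is 30.8 to 35.4% against 26.0 to 27.1%.

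By mean level over all 6 libraries, among the 13621 genes tested, *FN1* was number 50, *VIM* 181, *CDH2* 4215, *SNAI2* 6138, *ZEB1* 6280, *SNAI1* 7054, *TWIST1* 10223 and *ZEB2* 11834. *FN1* and *VIM* thus lay near the top, and each of the transcription factors had a lower mean over all 6 libraries than *CDH2*. Within the wild strain, *ZEB1* had the higher mean, 7.02 FPKM against 6.78 FPKM for *CDH2*. By the size of the change, *SNAI2* was number 2737, *ZEB2* 3430, *VIM* 4303, *TWIST1* 7045, *ZEB1* 7527, *SNAI1* 7608 and *FN1* 11296. In *SNAI1*, *TWIST1*, *ZEB1* and *FN1* the change was smaller than the median change over all genes.

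Other genes of the EMT programme were described by lists, with counts read beside the same background. Among 12 other EMT transcription factors, 7 were tested, 1 passed higher and 4 lower, and the median log2 fold change was -0.28. *TCF3*, which encodes the E2A proteins and was the most abundant of the list, fell by 0.28 on the log2 scale (limma, adjusted p = 2.18e-04), and *PRRX1*, *FOXC2*, *GSC* and *KLF8* were at 0 in every library.

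Epithelial adhesion and junction genes that passed the filter were lower on balance. Of 21 genes 11 were tested, 2 passed higher and 8 lower, with a median log2 fold change of -0.49 and none called higher. The other 10 stayed at or below 0.389 FPKM. With no filter, the median over all 21 genes was -0.09, and 10 of them had a log2 fold change above 0. The lower balance therefore covers the tested genes only. *JUP*, plakoglobin, which links cadherins to the cytoskeleton, fell from 44.7, 40.7 and 42.7 FPKM to 11.4, 10.9 and 10.4 FPKM (log2 fold change -1.96, SE 0.0506, limma, adjusted p = 5.43e-08), a larger change than that of any of the 8 EMT genes tested. *MUC1*, an apical membrane mucin, fell by 1.38 and *CTNND1* (p120 catenin), which had the highest mean over all 6 libraries though not within either group, by 0.34 on the log2 scale (limma, adjusted p = 5.70e-06 and 3.32e-05).

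Of 11 epithelial splicing and transcription factors only 3 were tested, and all 3 passed lower. *ELF3*, an epithelial ETS factor, was called (log2 fold change -1.06, limma, adjusted p = 5.43e-06), and *KLF4*, a zinc finger factor of epithelial differentiation and the most abundant, fell by 0.53 (adjusted p = 2.12e-04). The other 8, among them *GRHL2* and *OVOL1* at 0 in every library, stayed at or below 0.137 FPKM.

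Vimentin was also set against *KRT18*, a keratin of simple epithelia, since both are intermediate filament proteins. *KRT18* stood at 43.0, 39.4 and 41.2 FPKM in the wild strain and at 85.9, 83.7 and 85.9 FPKM after overexpression, and rose (log2 fold change 1.05, SE 0.0386, limma, adjusted p = 2.74e-07). The ratio of *VIM* to *KRT18* in FPKM was 2.70, 2.90 and 2.83 in the wild strain and 2.01, 2.04 and 2.02 after overexpression. The ratio was lower in each overexpression library than in any wild strain library. Of the 4 keratins, 3 reached 1 FPKM and *KRT19* was near 0. The list summed to 42.8 to 47.0 FPKM against 88.2 to 90.6 FPKM, most of it *KRT18*. Of the 3 tested, 2 passed higher and 1 in neither direction, with a median log2 fold change of 0.43. Only *KRT18* was called, and it was not when reads were scaled to library totals. The ratio to *VIM* was not computed for the other keratins.

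Mesenchymal adhesion and cytoskeleton genes were higher on balance, with 12 of the 16 tested passing higher, 2 lower and a median log2 fold change of 0.50. *ACTA2*, smooth muscle actin, rose by 3.42 and *TAGLN*, an actin-binding protein of contractile cells, by 3.13 on the log2 scale (limma, adjusted p = 1.23e-06 and 2.30e-07). *ACTA2* passed the filter only through the overexpression group, since the wild strain had 7 reads in each library, and its log2 fold change was 1.62 with a pseudocount of 1. *ITGB1*, an integrin subunit of fibronectin receptors and the most abundant, rose by 0.53, while *S100A4*, also known as fibroblast-specific protein, fell by 1.38 (limma, adjusted p = 3.61e-06 and 2.30e-06).

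Mesenchymal matrix and protease genes, the list nearest to *FN1*, were divided, with 5 of 14 tested passing higher, 5 lower and a median of 0.13. *MMP2*, the gelatinase that degrades basement membrane collagen, fell from 87.3, 87.2 and 85.3 FPKM to 15.0, 14.6 and 14.8 FPKM (log2 fold change -2.54, SE 0.0305, limma, adjusted p = 2.91e-09). *MMP9*, the other gelatinase, was below the filter and was not tested, at 0.128, 0.0509 and 0.188 FPKM in the wild strain and 0.415, 0.250 and 0.510 FPKM after overexpression. *PLAUR* (the urokinase receptor) and *THBS1* (thrombospondin 1, the highest mean over all 6 libraries, though *SPARC* was higher in the wild strain) rose by 1.50 and 1.21 on the log2 scale, and *TNC* (tenascin C) fell by 1.15, with adjusted p of 2.88e-07, 9.25e-08 and 4.55e-07 by limma.

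Genes that carry, restrain or respond to the TGF-beta signal, a main inducer of the EMT factors, were likewise split. Of 15 tested, 6 passed higher and 6 lower, with a median of -0.12. The paralogues *ID3* and *ID2*, inhibitors of basic helix-loop-helix factors, moved apart, with *ID3* higher by 3.79 and *ID2* at -1.34 on the log2 scale (limma, adjusted p = 1.85e-07 and 1.62e-06). *ID3* had 5 to 7 reads in a wild strain library and passed the filter only through the overexpression group, and its log2 fold change was 2.08 with a pseudocount of 1. *BAMBI*, a decoy receptor of the family, rose by 1.24, and *TGFBR2*, the type II receptor, with the highest mean over all 6 libraries, fell by 0.55 (limma, adjusted p = 2.95e-05 and 1.21e-05). With a pseudocount of 1, *BAMBI* was at 0.78 and was not called.

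**Figure D4:**
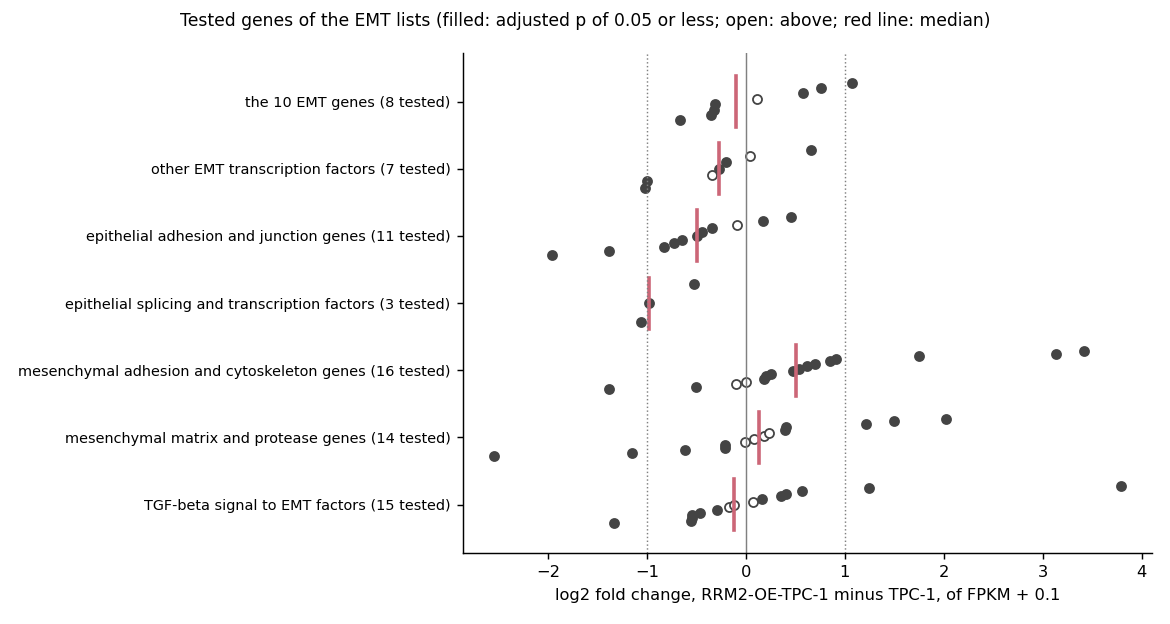
Log2 fold change (*RRM2*-OE-TPC-1 minus TPC-1, of FPKM + 0.1) of each tested gene of the EMT set and of the other lists, filled at an adjusted p of 0.05 or less, with the median of each list as a red line. Medians run from -0.98 for the 3 epithelial splicing and transcription factors to 0.50 for the 16 mesenchymal adhesion and cytoskeleton genes, and every list with more than 3 tested genes has points on both sides of 0.

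Of the 4 endothelial markers, *PECAM1*, an adhesion molecule of endothelial cells, was the only one to reach 1 FPKM, and its log2 fold change was -2.71 (limma, adjusted p = 2.35e-05). It passed the filter only through the wild strain, with 3, 7 and 12 reads after overexpression, and the value ran from -0.86 with a pseudocount of 1 to -4.02 by limma voom. *KDR* was at 0, and the list summed to 0.873 to 1.05 FPKM against 0.0667 to 0.115 FPKM. The leukocyte list likewise summed to 0.349 to 0.410 FPKM against 0.135 to 0.215 FPKM. The EMT set summed to 540.3 to 675.3 FPKM, most of it *FN1* and *VIM*. Its lowest tested gene, *ZEB2*, had a mean of 1.37 FPKM in the wild strain and 0.823 FPKM after overexpression. What part the cells behind these marker transcripts had in the results was not tested.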

How the data were processed

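RNA of TPC-1 and *RRM2*-OE-TPC-1 cells (3 libraries each) was sequenced. The study's methods state poly(A) selection, while the labels describe rRNA removal and RNase R digestion, so how the libraries were enriched is not settled. Per the submitters' processing notes, the authors used HISAT2 2.0.5, featureCounts 1.5.0, DESeq2 1.20.0 and GRCh38.p14, and deposited FPKM per gene. All 58735 gene IDs and positions matched GENCODE 29, and 12 gene symbols were restored from it. Each FPKM value multiplied by gene length gave whole reads (100% of values, tolerance 0.01), so reads on genes were recovered. The depth the authors divided by was 1.03 to 1.05 times the reads on genes in the wild strain and 0.997 to 1.01 times after overexpression.

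Genes with at least 0.5 FPKM and 10 reads in at least 3 libraries were fitted on log2(FPKM + 0.1) with limma 3.58.1 (lmFit, eBayes with trend, two-sided, Benjamini-Hochberg over all 13621 genes) in R 4.3.3. Pooled reads of genes below the filter were compared by an exact conditional interval, which covers counting error only. The scripts were tested on simulated data. The study describes biological triplicates, and p-values measure only the spread between these libraries. An exact permutation test of 3 against 3 cannot go below 0.1 and was not used.

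The EMT genes and the other lists were chosen with earlier results of these data known. From each list the 2 called genes with the largest rise and fall and the gene with the highest mean over all libraries are named. *MMP2* and *MMP9* are named because their proteins were measured in the study, beside Snail, N-cadherin and vimentin. By Western blot the study reported all of these proteins higher in *RRM2*-OE-TPC-1 cells, while the values here are of RNA only. Some genes of the lists are counted but not reported here by name. Alternatives were other pseudocounts, no filter, other scalings, limma voom on recovered reads, protein-coding genes only, a replicate block, and leaving out each library.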

Additional observations from a re-analysis of the deposited data

How the results depend on the processing

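No direction was reversed among the EMT genes under the alternatives run. *SNAI1*, *SNAI2*, *ZEB1*, *ZEB2*, *VIM* and *RRM2* kept their side of the adjusted p throughout, and *CDH2* did too (log2 fold change 0.98 to 1.20). For *TWIST1*, limma voom gave -0.37 (adjusted p = 0.0605). For *FN1*, limma voom gave 0.12 (adjusted p = 2.68e-04), and leaving out 1 library gave 0.083 to 0.145 (adjusted p 0.0332 to 0.201), with 0.15 without the wild strain replicate 2 and 0.14 without the overexpression replicate 1, and scaling to library totals gave 0.06 (adjusted p = 0.263). The *CDH2* to *CDH1* log2 ratio moved from 1.32 to 1.63 with a pseudocount of 0.01 and to 1.02 with one of 1.

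The number called depended on the threshold and on the pseudocount. By adjusted p alone, 9207 genes were called in place of 1560, 7 of the EMT set, 5 other EMT transcription factors, 10 epithelial junction genes, 3 epithelial splicing and transcription factors, 14 mesenchymal adhesion genes, 10 matrix genes and 12 TGF-beta genes. With a pseudocount of 1, 716 genes were called overall and 0 of the EMT set (*CDH2* 0.98), 0 other EMT factors and 0 epithelial factors. Other EMT factors called numbered 2 with a pseudocount of 0.01, with no filter, with library totals and by voom, and 0 to 2 when a library was left out (0 without the wild strain replicate 2 or the overexpression replicate 3). Epithelial factors called numbered 2 with a pseudocount of 0.01, with library totals and by voom, and 1 to 2 when a library was left out (2 without the overexpression replicate 2). Leaving out a library gave 0 to 1 calls in the EMT set, 0 without the wild strain replicate 2. *SOX4*, *GRHL1* and *CDH2* lie close to a log2 fold change of 1 in size (*SOX4* and *GRHL1* were named after their values were seen).

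Scaling to library totals moved the median log2 fold change of all genes from 0.01 to -0.05. The replicate numbers were not taken as pairs, since same-numbered libraries did not deviate together (correlations -0.01, -0.01 and -0.06). With the replicate number as a block, 1566 genes and 1 of the EMT set were called, and *CDH2* was 1.07 (adjusted p = 1.67e-04). For *CDH1* and *EPCAM*, with under 10 reads in a library, the ratio of pooled reads was not recomputed under the alternatives of pseudocount, voom and block. With no filter, limma on log2(FPKM + 0.1) gave -0.24 for *CDH1* (adjusted p = 0.461) and 0.65 for *EPCAM* (adjusted p = 0.0860), and depth limits any statement on them.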
